A study of Homo sapiens with 9 samples.

Results

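The 10 genes followed here encode factors for the pausing and elongation of RNA polymerase II, measured in SKOV3 cells, an established ovarian cancer cell line, in which the kinase CDK9 was altered or its upstream kinase ALK was inhibited. They were chosen by name and taken by symbol from the deposited count table, which lists 58735 genes. SUPT5H and SUPT4H1 encode DSIF, NELFA, NELFB, NELFCD and NELFE encode NELF, PAF1, CTR9 and LEO1 encode core parts of the PAF1 complex, and SUPT6H encodes the histone chaperone SPT6. RNA was sequenced from 3 groups of 3 libraries each. Cells expressing WT CDK9 were the reference, the same cells after 24 h with an ALK inhibitor were the second group, and cells expressing Tyr19Phe CDK9, in which tyrosine 19 is replaced by a phenylalanine that cannot be phosphorylated, were the third. The study describes its stable lines as CDK9-depleted SKOV3 cells that re-express a CDK9 form. The WT CDK9 and Tyr19Phe CDK9 cells are therefore different lines. An effect of Tyr19Phe cannot be told apart from another difference between these lines. Whether each line was 1 clone, and which ALK inhibitor and dose were used for these libraries, are not given in the sources used here. The sources also do not say that the 3 libraries of a group came from separate cultures, so the p-values below measure the spread between these libraries, which may be technical.

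Shortly after it starts to transcribe, RNA polymerase II stops near the promoter, held there by DSIF and NELF. CDK9, the kinase of P-TEFb, phosphorylates the SPT5 subunit of DSIF, NELF and the polymerase itself. NELF then leaves, DSIF changes from a brake into an elongation factor, and the PAF1 complex and SPT6 join the moving polymerase and help it through chromatin. The comparisons asked whether RNA of the proteins on which CDK9 acts, and of those that join after it, differed when ALK was inhibited or when CDK9 carried Tyr19Phe.

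The libraries held between 18169050 and 29320184 counts, and the median Tyr19Phe CDK9 library was 1.45 times as deep as the median WT CDK9 library. The 7 epithelial and SKOV3 markers examined, among them KRT8, ERBB2 and PAX8, were at or above 1 CPM (counts scaled to 1000000 per library, with TMM factors) in all 9 libraries. All 3 leukocyte markers stayed under 1 CPM, and of the 3 endothelial markers CDH5 alone exceeded it, at up to 1.25 CPM. The group means of CDH5 were 0 CPM in WT CDK9 cells, 0.0183 CPM with the ALK inhibitor and 0.787 CPM in Tyr19Phe CDK9 cells. Of the 4 fibroblast markers, DCN and PDGFRB were under 1 CPM in every library, while the collagens COL1A1 and COL1A2 were at or above 1 CPM in all of them. The summed level of the fibroblast list was 110 to 113 CPM in WT CDK9 cells, 124 to 162 CPM with the ALK inhibitor and 38.0 to 51.7 CPM in Tyr19Phe CDK9 cells. Nearly all of it was COL1A1, with group means of 104, 133 and 37.9 CPM, while COL1A2 had means of 6.49, 10.6 and 6.16 CPM. The summed epithelial level was 5319 to 5508 CPM, 5847 to 5986 CPM and 5163 to 5357 CPM in these groups, but its genes differed in direction, with KRT19 at means of 246, 284 and 104 CPM and KRT8 at 1307, 1306 and 1695 CPM. CDK9 itself, the gene that differs between the cells by design, was found at 48.4, 49.7 and 47.6 CPM in WT CDK9 libraries, at 43.8, 47.3 and 45.7 CPM with the ALK inhibitor and at 52.4, 53.1 and 59.5 CPM in Tyr19Phe CDK9 libraries. In bulk RNA a lower level in each cell and fewer cells with the RNA cannot be told apart. Counts per gene do not show which base a read carries and do not separate introduced from endogenous CDK9, so they check neither the mutation nor the depletion.

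NELFB, SUPT6H and PAF1 were higher with Tyr19Phe CDK9 than with WT CDK9, and their promoters are shown because these are the 3 genes that were called together. Of the 10 genes, 9 had a promoter in the RefSeq table for GRCh38.p14, those other than SUPT5H. Each sequence below is the 250 bases before the RefSeq start of the gene, read 5′ to 3′ on the gene's own strand. The capitals mark matches, on either strand, to any of 5 motifs: the TATA box TATAAA, the CCAAT box CCAAT, the GC box GGGCGG, the ETS motif CCGGAAG and GCATGC, the core of the NRF1 motif. The NELFB window is chr9:137255077-137255326 on the plus strand, the SUPT6H window is chr17:28661955-28662204 on the plus strand, and the PAF1 window is chr19:39391107-39391356 on the minus strand. In the deposited table the span of each of these 3 genes begins inside its window.
NELFB: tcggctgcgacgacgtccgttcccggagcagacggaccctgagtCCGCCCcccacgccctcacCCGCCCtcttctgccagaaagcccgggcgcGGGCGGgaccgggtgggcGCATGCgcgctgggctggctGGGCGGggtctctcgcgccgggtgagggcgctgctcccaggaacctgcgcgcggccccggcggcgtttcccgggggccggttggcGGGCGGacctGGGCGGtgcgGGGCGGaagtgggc
SUPT6H: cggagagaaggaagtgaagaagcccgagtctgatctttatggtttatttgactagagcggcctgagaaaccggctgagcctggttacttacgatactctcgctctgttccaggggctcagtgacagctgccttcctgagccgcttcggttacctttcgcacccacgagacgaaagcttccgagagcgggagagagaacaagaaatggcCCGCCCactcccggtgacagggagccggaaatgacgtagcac
PAF1: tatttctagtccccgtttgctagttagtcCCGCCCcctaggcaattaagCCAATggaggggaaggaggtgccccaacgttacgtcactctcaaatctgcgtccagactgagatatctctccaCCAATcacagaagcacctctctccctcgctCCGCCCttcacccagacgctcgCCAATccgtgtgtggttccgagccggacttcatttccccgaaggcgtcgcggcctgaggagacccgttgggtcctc
The NELFB window had 7 GC boxes, 1 NRF1 core and a GC content of 78.4%, the highest of the 9 windows. SUPT6H had 1 GC box at 56.0% GC, the lowest of the 9, and PAF1 had 3 CCAAT boxes and 2 GC boxes at 58.0% GC. No 2 matches overlapped in these 3 windows. Over all 35116 RefSeq promoters of this length, which were not matched to the 9 windows for GC content, the median GC content was 58.0%. A GC box was present in 42.6% of them and in 8 of the 9 windows searched here, a CCAAT box in 32.0% and 1 of 9, an ETS motif in 8.52% and 4 of 9, the NRF1 core in 6.21% and 1 of 9, and a TATA box in 10.7% and 0 of 9. Of the 5 motifs, the GC box alone was found in more than 1 of the 3 genes that were higher.

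DSIF is a pair of proteins, SPT5 and SPT4. RNA of SUPT5H, which encodes the large subunit and a CDK9 substrate (ENSG00000196235), was found at 137, 131 and 133 CPM in WT CDK9 libraries, at 144, 133 and 133 CPM with the ALK inhibitor and at 145, 148 and 141 CPM in Tyr19Phe CDK9 libraries. The Tyr19Phe CDK9 libraries lay above all 3 WT CDK9 libraries but overlapped those of the ALK inhibitor. SUPT4H1 (ENSG00000213246), which encodes the small subunit, was listed with 1 count in WT CDK9 replicate 2, 3 counts in Tyr19Phe CDK9 replicate 1 and 0 counts in the other 7 libraries. A count of 0 allows up to 3 counts, which is 0.102 to 0.165 CPM in these libraries and covers counting error only. SUPT4H1 was therefore not tested, and the other 9 genes passed the filter on low counts.

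The low counts of SUPT4H1 are uncertain as a measure of its RNA. Most of the gene shares its bases with other annotated genes, and whether this lowered its counts was not tested. In the GENCODE release 44 exons, kept within the spans of the deposited table, 63.7% of its 2079 exonic bases also belonged to AC004687.2 on the same strand, and 89.8% belonged to some other gene on either strand. AC004687.2 was itself listed with at most 7 counts in any library, and TSPOAP1-AS1, which shares 27.8% of the SUPT4H1 bases on the opposite strand, with at most 10. Among all protein-coding genes with at least 50% of their exonic bases shared on the same strand, 492 of 834 (59.0%) were listed with 3 counts or fewer in every library, against 3970 of 18997 (20.9%) of the others. Of the other 9 genes, NELFE shared 3.85% of its exonic bases with another gene on the same strand, NELFA 1.86% and the rest none. These 2 sets of genes can differ in other ways as well. The annotation release and the strand setting of the counting are not given in the sources used here, so the overlaps used for counting may differ.

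Levels of different genes were set side by side as CPM per kilobase of the gene length listed in the table. In WT CDK9 cells NELFB was highest of the 9 genes at 44.3 ± 1.86 CPM per kilobase (SD, n = 3), followed by NELFE at 33.0 ± 0.864 and PAF1 at 27.9 ± 0.942. NELFCD at 16.2 ± 0.449 and SUPT5H at 15.6 ± 0.352 did not differ beyond their spread, and neither did LEO1 at 12.4 ± 1.17 and SUPT6H at 12.1 ± 0.659. CTR9 at 8.65 ± 0.590 and NELFA at 7.98 ± 0.211 came last and overlapped. NELFB exceeded 93.4% of the 13145 protein-coding genes tested and NELFA exceeded 59.2% of them, with the other 7 genes between. The listed length counts every annotated exon, so a gene with many long isoforms is set lower on this scale than its shorter transcripts would be.

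The NELF genes encode the complex that keeps the polymerase at the pause. NELFB (ENSG00000188986, chromosome 9, 137255173 to 137273546), which encodes a subunit at the centre of the complex, was found at 116, 125 and 117 CPM in WT CDK9 libraries, at 122, 120 and 116 CPM with the ALK inhibitor and at 138, 147 and 143 CPM in Tyr19Phe CDK9 libraries. All 3 Tyr19Phe CDK9 libraries lay above the 6 others. Of all tested genes, 15.4% had the Tyr19Phe CDK9 libraries above those of WT CDK9 and 16.7% above those of the ALK inhibitor. The share with both was not counted. NELFE, which encodes the RNA-binding subunit, was found at 91.3, 87.1 and 91.1 CPM, at 91.3, 93.5 and 98.2 CPM and at 88.8, 85.8 and 90.1 CPM in the same order of groups. Its Tyr19Phe CDK9 libraries overlapped those of WT CDK9 and lay just below all 3 of the ALK inhibitor. NELFCD, which encodes a subunit that joins NELFB to NELFA, ranged from 99.4 to 110 CPM over the 9 libraries. NELFA, whose protein has the tail that contacts the polymerase, ranged from 43.7 to 49.9 CPM. For both, the libraries of the 3 groups overlapped.

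The genes that act after the pause were PAF1, CTR9, LEO1 and SUPT6H. SUPT6H (ENSG00000109111, chromosome 17, 28662091 to 28702684), whose product SPT6 restores nucleosomes behind the polymerase, was found at 131, 135 and 121 CPM in WT CDK9 libraries, at 140, 130 and 128 CPM with the ALK inhibitor and at 151, 150 and 156 CPM in Tyr19Phe CDK9 libraries. As for NELFB, the 3 Tyr19Phe CDK9 libraries lay above the 6 others. PAF1 (ENSG00000006712, chromosome 19, 39385852 to 39391195), which encodes the subunit that gives the complex its name, was found at 74.1, 77.1 and 72.0 CPM, at 79.7, 74.97 and 85.2 CPM and at 80.5, 85.2 and 89.1 CPM in the same order. The Tyr19Phe CDK9 libraries lay above those of WT CDK9, and those of the ALK inhibitor overlapped both.

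CTR9, which encodes the scaffold subunit of the PAF1 complex, was found at 55.2, 53.0 and 48.2 CPM in WT CDK9 libraries, at 53.7, 60.1 and 62.9 CPM with the ALK inhibitor and at 55.9, 56.2 and 55.2 CPM in Tyr19Phe CDK9 libraries. The lowest Tyr19Phe CDK9 library was barely above the highest of WT CDK9. LEO1, which encodes a subunit that binds the polymerase beside PAF1, ranged from 30.9 to 38.9 CPM, with all 3 groups overlapping.

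**Figure D1:**
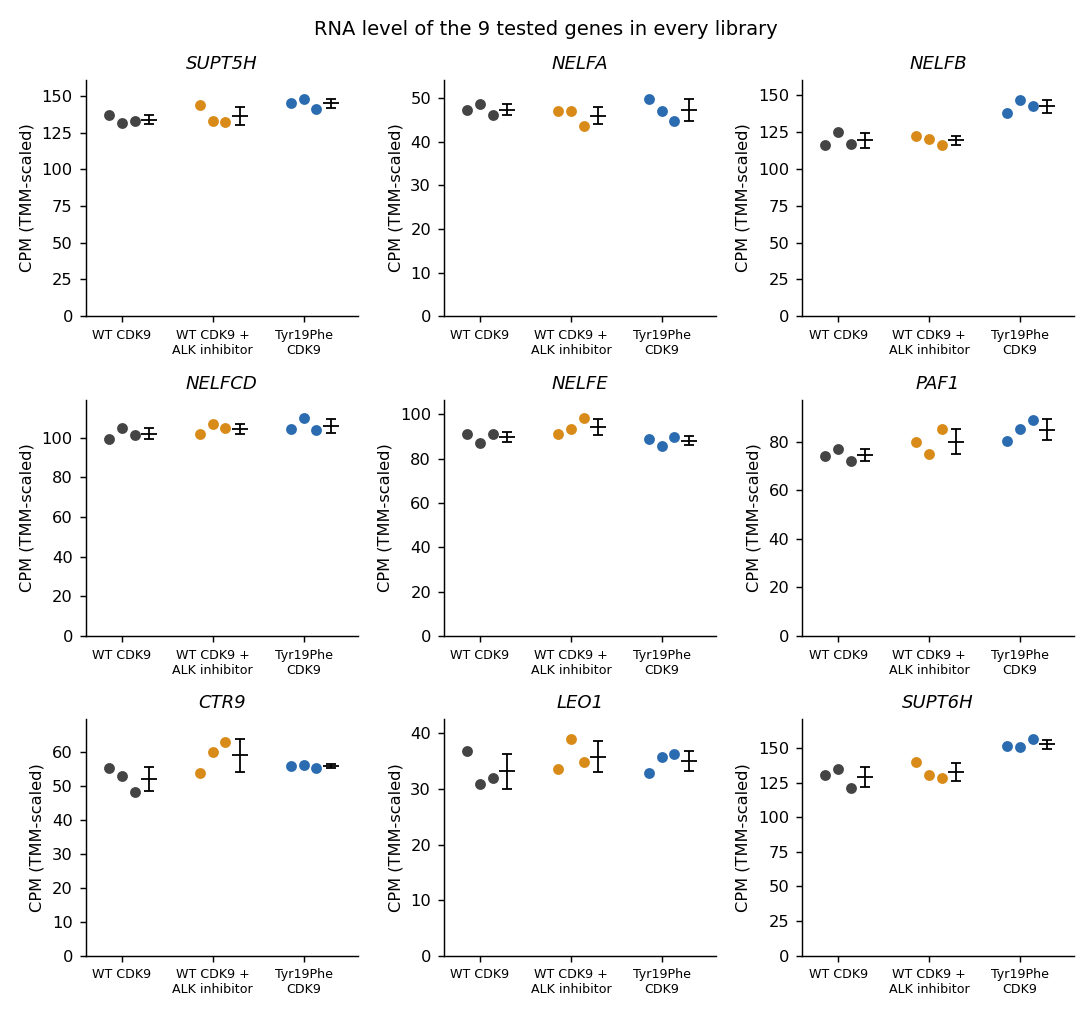
RNA levels of the 9 tested genes in CPM, each panel from 0, with 1 point per library and, beside the points, the mean and SD of the 3 libraries of the group. NELFB and SUPT6H are the panels in which the 3 Tyr19Phe CDK9 libraries lie above all 6 others, at 138 to 147 and 150 to 156 CPM. The share of all tested genes with this pattern was not counted.

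None of the 9 genes was called higher or lower after 24 h of ALK inhibition, with edgeR's quasi-likelihood test on the joint fit of 9 libraries and a Benjamini-Hochberg adjusted p under 0.05 over all 16350 tested genes as the criterion. In the same comparison 1.82% of all tested genes were called higher and 2.73% lower (with scaling by library size alone 406 genes were higher and 344 lower, in place of 297 and 447). DESeq2 also called none, and 1 gene had an unadjusted p under 0.05. That gene was CTR9, whose log2 fold change was 0.18 (SE 0.08, 95% confidence interval 0.02 to 0.33, adjusted p = 0.255) and whose libraries overlapped. NELFB differed by 0.00 (SE 0.05), with an interval from -0.11 to 0.11. The log2 fold changes of the 9 genes ranged from -0.04 for NELFA to 0.18 for CTR9 with a median of 0.04, beside -0.001 over all tested genes, and in none of the 9 were the 3 treated libraries clear of the 3 WT CDK9 libraries on either side, as they were for 9.31% (higher) and 10.3% (lower) of all tested genes. The 95% intervals of all 9 lay between -0.20 and 0.33.

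With Tyr19Phe CDK9, 3 of the 9 genes were higher than with WT CDK9 and none was lower, where 7.61% of all tested genes were called higher and 10.4% lower (1245 and 1695 genes, but 1544 and 1451 with scaling by library size alone and 1474 and 1483 with upper-quartile scaling). DESeq2 called 3 higher and 0 lower, and at an unadjusted p under 0.05 there were 4 higher and 0 lower. NELFB was higher by a log2 fold change of 0.26 (SE 0.05, adjusted p = 0.00058), which is 19.3% with a 95% confidence interval from 10.8% to 28.6%. SUPT6H was higher by 0.24 (SE 0.05, adjusted p = 0.00109), or 18.4% with an interval from 9.79% to 27.6%. PAF1 was higher by 0.19 (SE 0.07, adjusted p = 0.0388), or 14.1% with an interval from 4.07% to 25.1%. The calls of NELFB and SUPT6H were kept in all 6 fits that left out 1 library and in all 11 other alternatives. That of PAF1 was kept in 2 of 6 and in 9 of 11.

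PAF1 missed the threshold without WT CDK9 replicate 1 (adjusted p = 0.102), without WT CDK9 replicate 3 (0.136), without Tyr19Phe CDK9 replicate 2 (0.0837) and without Tyr19Phe CDK9 replicate 3 (0.153), and also when a trend with gene length (0.0879) or with GC content (0.0979) was removed. SUPT5H was near the threshold from the other side. Its log2 fold change of 0.12 (SE 0.05, adjusted p = 0.119) was not called, but it was with scaling by library size alone (0.14, adjusted p = 0.0498) and with the length trend removed (0.15, adjusted p = 0.0322). The remaining genes were not called, with log2 fold changes of 0.10 for CTR9, 0.07 for LEO1, 0.05 for NELFCD, -0.00 for NELFA and -0.03 for NELFE and adjusted p-values from 0.441 to 0.990. The median over the 9 genes was 0.10, beside 0.00 over all tested genes. In 5 of the 9 (NELFB, SUPT6H, PAF1, SUPT5H and CTR9) all Tyr19Phe CDK9 libraries exceeded all WT CDK9 libraries, as did 15.4% of all tested genes, and in none did they lie below, as they did for 17.2%.

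The ALK inhibitor and Tyr19Phe CDK9 groups share the WT CDK9 libraries as reference, so they were compared with each other directly. This comparison, too, sets different lines against each other. NELFB was higher in Tyr19Phe CDK9 cells than with the inhibitor by a log2 fold change of 0.26 (SE 0.05, adjusted p = 0.000504), and SUPT6H by 0.20 (SE 0.05, adjusted p = 0.00593). These were the only 2 of the 9 genes called, both higher, where 9.57% of all tested genes were called higher and 11.1% lower. DESeq2 called 2 higher and 0 lower, as did an unadjusted p under 0.05. Both calls were kept in all 6 fits without 1 library and all 11 other alternatives, with an adjusted p of up to 0.0439 for SUPT6H. PAF1 differed by 0.09 (SE 0.06, 95% confidence interval -0.05 to 0.22, adjusted p = 0.391), so the libraries do not show that its level in Tyr19Phe CDK9 cells differs from that with the inhibitor. CTR9 was at -0.08 (interval -0.23 to 0.07) and NELFE at -0.10 (interval -0.22 to 0.02), neither called. The Tyr19Phe CDK9 libraries lay above all those of the inhibitor for NELFB and SUPT6H and below them for NELFE, beside 16.7% and 17.7% of all tested genes. In this comparison the 102 tested genes that start within 5 Mb of NELFB had a median log2 fold change of 0.25, with 41 called higher and 8 lower.

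**Figure D2:**
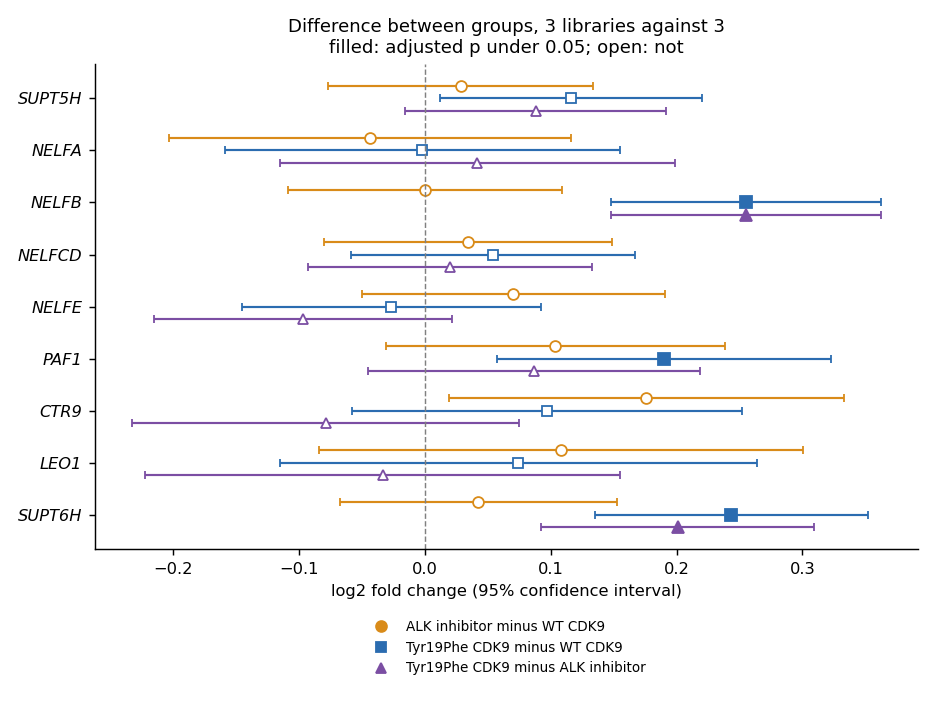
Log2 fold change of each tested gene in the 3 comparisons (circles, ALK inhibitor minus WT CDK9; squares, Tyr19Phe CDK9 minus WT CDK9; triangles, Tyr19Phe CDK9 minus ALK inhibitor), with 95% confidence intervals and filled symbols for an adjusted p under 0.05. The filled symbols are NELFB, SUPT6H and PAF1 in Tyr19Phe CDK9 against WT CDK9 and NELFB and SUPT6H against the ALK inhibitor, and all lie to the right of 0.

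**Figure D3:**
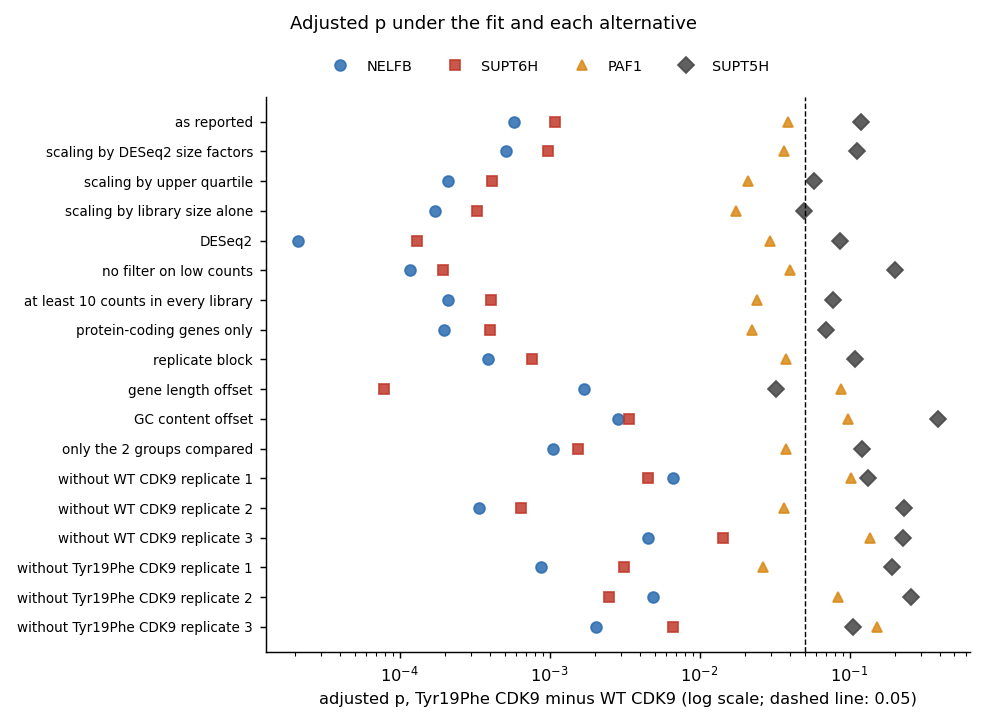
Adjusted p of NELFB, SUPT6H, PAF1 and SUPT5H for Tyr19Phe CDK9 minus WT CDK9, on a log axis, under the reported fit and each of 17 alternatives. NELFB and SUPT6H lie left of the dashed line at 0.05 in every row, PAF1 crosses it in 6 rows and SUPT5H lies right of it in all but 2 of the rows.

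Because NELF is built with 1 copy of each of its subunits, the ratio of 2 of its genes within a library was also followed, which does not depend on how libraries are scaled. The log2 ratio of NELFB to NELFE per kilobase was 0.36, 0.54 and 0.37 in WT CDK9 libraries, 0.43, 0.37 and 0.25 with the ALK inhibitor and 0.65, 0.79 and 0.67 in Tyr19Phe CDK9 libraries. That of NELFB to NELFCD was 1.45, 1.48 and 1.43, then 1.49, 1.40 and 1.37, then 1.63, 1.64 and 1.68. In both ratios the 3 Tyr19Phe CDK9 libraries lay above the 6 others. How many other pairs of genes do so was not counted.

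NELFB accounted for 43.6 ± 1.13% (SD, n = 3) of the summed per-kilobase level of the 4 NELF genes in WT CDK9 cells, 42.9 ± 1.15% with the ALK inhibitor and 48.0 ± 0.918% in Tyr19Phe CDK9 cells. The NELFE share was 32.6 ± 1.36%, 33.6 ± 1.26% and 29.5 ± 1.01%. The shares of a library are parts of 1 whole, so a higher NELFB share lowers the others. NELFE itself was not called in Tyr19Phe CDK9 against WT CDK9 cells (edgeR, log2 fold change -0.03, adjusted p = 0.825). The ratio of NELFCD to NELFE, which leaves NELFB out, overlapped between WT CDK9 and Tyr19Phe CDK9 libraries, from -1.09 to -0.94 and from -1.01 to -0.86, but the ALK inhibitor libraries, from -1.12 to -1.02, lay below those of Tyr19Phe CDK9. These ratios use the same counts as the comparison above and have no test of their own. Among the PAF1 complex genes the ratio of PAF1 to CTR9 overlapped between the groups, from 1.60 to 1.76 in WT CDK9 libraries and from 1.70 to 1.87 in Tyr19Phe CDK9 libraries.

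**Figure D4:**
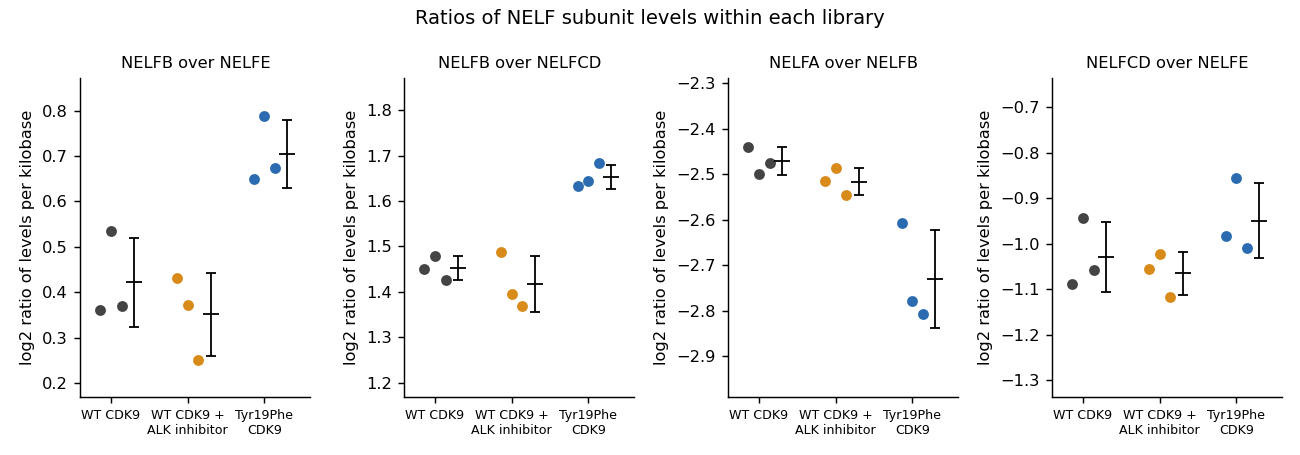
Log2 ratio of the per-kilobase levels of pairs of NELF genes in each library, with the mean and SD of 3 libraries beside the points; all panels span the same range of log2 units but start at different values. The ratios with NELFB set the 3 Tyr19Phe CDK9 libraries apart, at 0.65 to 0.79 over NELFE against 0.25 to 0.54 in the 6 other libraries, while the ratio of NELFCD to NELFE overlaps between Tyr19Phe CDK9 and WT CDK9 libraries. How many other pairs of genes set these 3 libraries apart was not counted.

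Genes around each of the 9 were examined, since neighbouring genes of a cell population can move together. Of the 102 tested genes that start within 5 Mb of NELFB, near the end of the long arm of chromosome 9, 77 had a log2 fold change above 0 in Tyr19Phe CDK9 against WT CDK9 cells, 36 were called higher and 6 lower. Their median was 0.24, next to 0.26 for NELFB, and NELFB exceeded 54.9% of them. Within 2 Mb and 10 Mb the median was 0.22. In Tyr19Phe CDK9 cells against the ALK inhibitor the median of the 102 was 0.25, and NELFB exceeded 52.0% of them. Set against the mean of the WT CDK9 libraries, the median of the 102 neighbours on the log2 scale was -0.01, 0.08 and -0.06 in the WT CDK9 libraries, -0.02, 0.01 and -0.04 with the ALK inhibitor and 0.17, 0.28 and 0.19 in the Tyr19Phe CDK9 libraries, where NELFB was at 0.21, 0.30 and 0.26. In each group the neighbours and NELFB were therefore at similar values, and the part of this regional shift in the NELFB result was not tested.

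The neighbours of SUPT6H on chromosome 17 did not do this. The 82 tested genes within 5 Mb start between -1.37 and 4.35 Mb from SUPT6H, so they lie mostly on 1 side of it. Of these 82, 34 had a log2 fold change above 0, 2 were called higher and 14 lower. Their median was -0.04, beside 0.24 for SUPT6H, which exceeded 84.1% of them. The median of the neighbours was -0.06, -0.06 and -0.00 in the Tyr19Phe CDK9 libraries, set against the WT CDK9 mean as before, where SUPT6H was at 0.23, 0.22 and 0.28.

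PAF1 and SUPT5H start close together on chromosome 19 and share nearly all their neighbours. The 229 genes around PAF1 had a median of 0.03, with 14 called higher and 13 lower, and PAF1 exceeded 74.7% of them. NELFE lies within the major histocompatibility region of chromosome 6, where the 203 neighbours had a median of 0.11 with 30 called higher and 8 lower, and NELFE at -0.03 exceeded 29.1% of them. NELFA lies near the end of the short arm of chromosome 4, where none of 79 neighbours was called higher and 19 were lower, with a median of -0.19, and NELFA at -0.00 exceeded 77.2% of them. Medians of the neighbours of NELFCD, CTR9 and LEO1 were between -0.06 and 0.03 in windows of 2, 5 and 10 Mb, and that of CTR9 was below 0 within 2 Mb and above 0 in the wider windows. With the ALK inhibitor, the medians within 5 Mb of all 9 genes lay between -0.04 and 0.04, and that of NELFB was -0.05 within 2 Mb. CDK9 is on chromosome 9 as well, more than 5 Mb from NELFB, and its 122 neighbours had a median of 0.11 in Tyr19Phe CDK9 against WT CDK9 cells, with 30 called higher and 15 lower. This value depended on the window, at 0.24 for the 68 genes within 2 Mb (24 higher, 4 lower) and 0.18 for the 240 within 10 Mb (68 higher, 23 lower).

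**Figure D5:**
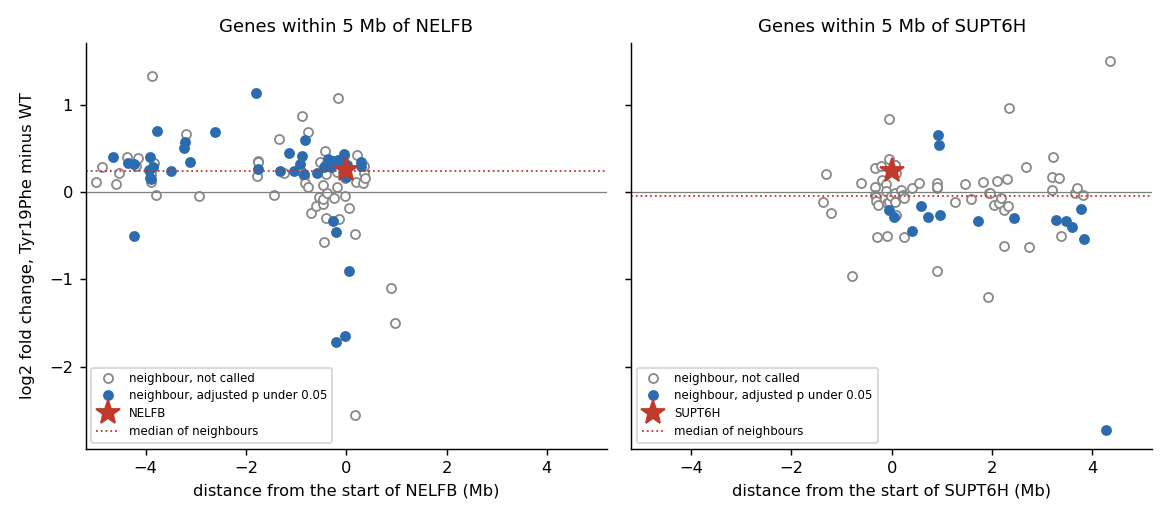
Log2 fold change between Tyr19Phe CDK9 and WT CDK9 cells of every tested gene within 5 Mb of NELFB (left) and SUPT6H (right), by distance of its start from that of the gene, with called genes filled, the gene itself as a star and the median of its neighbours dotted. The star of NELFB lies next to the median of its 102 neighbours, 0.26 beside 0.24, and that of SUPT6H above the median of its 82, 0.24 beside -0.04.

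Base composition was followed for the same reason. GC content was taken from the longest annotated transcript of each gene. That of NELFB was 63.4% and the median of its neighbours 61.3%, against a median of 47.8% over the tested genes. With each library's trend along GC content removed, an alternative added after the data had been seen, NELFB was still called higher with Tyr19Phe CDK9 than with WT CDK9, at 0.20 (SE 0.05, adjusted p = 0.00285), and its neighbours had a median of 0.19 with 30 higher and 6 lower. SUPT6H, with a GC content of 53.4%, was at 0.21 (SE 0.05, adjusted p = 0.0034), and SUPT5H was at 0.07 (adjusted p = 0.391).

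Among tested genes averaging 1 CPM or more, the 3 whose log2 CPM followed NELFB most closely over the 9 libraries were KRT8 (Pearson r = 0.989), TRABD (0.987) and FSCN1 (0.985), out of 14040 genes compared. They lie on chromosomes 12, 22 and 7. KRT8, which encodes an epithelial keratin, was found at a mean of 1307, 1306 and 1695 CPM in the WT CDK9, ALK inhibitor and Tyr19Phe CDK9 groups, and FSCN1, which encodes an actin-bundling protein, at 524, 510 and 644 CPM. Of the pairs among the 9 genes themselves, NELFB and SUPT6H were the most alike (r = 0.92) and NELFB and NELFE the least (r = -0.69). These correlations describe 9 libraries that fall into 3 groups and share their depth and scaling within a library.

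A list of 39 other elongation genes was set beside the 10, of which 38 were tested. The exception was ELL3, which, like SUPT4H1, has most of its exonic bases (62.3%) in another gene on the same strand. Whether this lowered the counts of ELL3 was not tested. With the ALK inhibitor 1 of the 38 was called higher and none lower, where 1.82% of all tested genes were higher and 2.73% lower, and 4 had an unadjusted p under 0.05 in either direction. The call is therefore near the background share. It was TCEA2, which encodes a factor that rescues backtracked polymerase, at 33.8, 31.8 and 32.6 CPM in WT CDK9 libraries and 39.0, 40.6 and 44.6 CPM in treated ones (log2 fold change 0.34, SE 0.09, adjusted p = 0.0196). Its call was lost without WT CDK9 replicate 2, WT CDK9 replicate 3 or ALK inhibitor replicate 3, with an adjusted p of up to 0.141. In Tyr19Phe CDK9 cells 1 of the 38 was higher and 5 were lower, where 7.61% of all tested genes were higher and 10.4% lower, so the lower count is near the background share. The median log2 fold change of the 38 was -0.05, beside 0.10 for the 9 pausing and elongation genes.

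Genes of the super elongation complex and ELL family carry P-TEFb to paused polymerase or speed up the polymerase itself. Of the 8 tested, 3 were called lower (AFF1, AFF4 and ELL2) and none higher, where 10.4% of all tested genes were lower and 7.61% higher. They belong to the list above, whose lower count is near that share. The rest were not called. ELL at 0.19, EAF1 at 0.15 and MLLT1 at 0.05 had log2 fold changes above 0. MLLT3 at -0.05 and EAF2 at -0.59 (SE 0.95, at most 23 counts in any library) were below 0. AFF1, a scaffold of that complex, was found at 120, 112 and 119 CPM in WT CDK9 libraries, 105, 113 and 117 CPM with the ALK inhibitor and 79.0, 71.7 and 70.3 CPM in Tyr19Phe CDK9 libraries (log2 fold change between the last and the first group -0.66, SE 0.06, adjusted p = 7.48e-10). AFF4, the other scaffold, was lower by a log2 fold change of -0.21 (SE 0.05, adjusted p = 0.000854), and ELL2, an elongation factor bound to it, by -0.18 (SE 0.06, adjusted p = 0.0299) with overlapping libraries. The ELL2 call was kept in 2 of 6 fits without 1 library. PHF3, which encodes a protein that binds the tail of the polymerase, was at -0.24 (SE 0.05, adjusted p = 0.000943). The calls of AFF1, AFF4 and PHF3 were kept in all 17 alternatives.

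Of the 3 remaining PAF1 complex genes, 1 was called lower and none higher, where 10.4% of all tested genes were lower and 7.61% higher. The differences of these 3 were not tested against that of PAF1. CDC73, which encodes the tumour suppressor parafibromin, was found at 83.8, 91.2 and 81.4 CPM in WT CDK9 libraries and at 79.0, 75.3 and 69.1 CPM in Tyr19Phe CDK9 libraries, all lower (log2 fold change -0.20, SE 0.07, adjusted p = 0.0337). RTF1, which promotes ubiquitination of histone H2B, was at -0.13 (SE 0.06, adjusted p = 0.113), and WDR61, also called SKIC8, at -0.01 (SE 0.08, adjusted p = 0.976). The call of CDC73 was lost without WT CDK9 replicate 1, WT CDK9 replicate 2, Tyr19Phe CDK9 replicate 2 or Tyr19Phe CDK9 replicate 3 (adjusted p up to 0.219) and under 4 other alternatives. That of ELL2 was lost without WT CDK9 replicate 1, WT CDK9 replicate 3, Tyr19Phe CDK9 replicate 2 or Tyr19Phe CDK9 replicate 3 (adjusted p up to 0.179) and under 4 other alternatives. WAC, which works with the H2B ubiquitin ligase and was the gene of the list called higher (0.13, SE 0.04, adjusted p = 0.0418), was kept in 1 of 6 fits without 1 library, the one without WT CDK9 replicate 2, and in 9 of the 11 other alternatives.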

How the data were processed

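RNA-seq counts of 9 SKOV3 libraries, in 3 groups of 3 by their labels, were analysed. The authors deposited whole-number counts per gene, not normalized, made from reads mapped to hg38; the submitters' processing notes name CASAVA, HISAT2 2.0.5 and featureCounts 1.5.0-p3. The annotation release and strand setting are not given in the sources used here. Tests used edgeR 4.0.16 in R 4.3.3, with DESeq2 1.42.0 as an alternative, and summaries used pandas 2.3.3 in Python 3.11.15. Genes passed filterByExpr (minimum count 10, minimum total 15), libraries were scaled by TMM, and the 3 group means were estimated jointly from the 9 libraries in edgeR's quasi-likelihood framework (6 residual degrees of freedom). Benjamini-Hochberg adjustment covered all 16350 genes tested, and an adjusted p under 0.05 was a call. SE is the absolute log2 fold change divided by the square root of F, and 95% intervals use the model's t distribution. Totals ranged from 18169050 to 29320184 counts, and floors and intervals of counts cover counting error only. Log2 CPM used a prior count of 2.

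The 10 genes, the lists and the tests were chosen with earlier results of these data known. Named besides the 10 and CDK9 were the other PAF1 complex genes, the 5 called genes of the elongation list with the smallest adjusted p per comparison and direction, and the 3 genes most correlated with NELFB. Alternatives were other scalings, filters and thresholds, DESeq2, a replicate block, a gene length offset, fits of only the groups compared, windows of 2 and 10 Mb, and each library left out; a GC content offset was added after the data had been seen. Length and GC trends were loess curves with a span of 0.3. GC values covered 99.5% of tested genes. The code was tested on simulated counts.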

Additional observations from a re-analysis of the deposited data

Results flagged for a closer look

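Of the 9 tested pausing and elongation genes, CDK9 and the 38 tested genes of the list of other elongation genes, 8 were called when the Tyr19Phe CDK9 libraries were compared directly with those of the ALK inhibitor, by the contrast in the same edgeR fit. In this comparison 9.57% of all tested genes were called higher and 11.1% lower, so the 8 calls together are not above the background share. Among the pausing and elongation genes the called ones were NELFB, with a log2 fold change of 0.26 (SE 0.05, adjusted p = 0.000504), and SUPT6H, with 0.20 (SE 0.05, adjusted p = 0.00593). The 102 neighbours of NELFB within 5 Mb had a median of 0.25 in this comparison, with 41 called higher and 8 lower. CDK9 itself was higher by 0.27 (SE 0.08, adjusted p = 0.00961), a call lost without ALK inhibitor replicate 1 or Tyr19Phe CDK9 replicate 3, with an adjusted p of up to 0.0794. Against WT CDK9 cells it was at 0.18 (SE 0.08, adjusted p = 0.106 in the same fit) and was not called. Against the ALK inhibitor the neighbours of CDK9 had a median of 0.11 within 5 Mb (36 higher, 16 lower) and 0.23 within 2 Mb (25 higher, 5 lower). In the list of other elongation genes 5 of 38 were lower in Tyr19Phe CDK9 cells, near the 11.1% of all tested genes that were lower, and none was higher, where 9.57% were: AFF1 at -0.60 (adjusted p = 4.56e-09), AFF4 at -0.29 (adjusted p = 1.05e-05), PHF3 at -0.25 (adjusted p = 0.000389), SCAF8, which encodes a protein that binds the tail of the polymerase, at -0.23 (adjusted p = 0.0224) and RTF1 at -0.16 (adjusted p = 0.0485). AFF1, AFF4 and PHF3 were called in all 17 alternatives. SCAF8 was lost without ALK inhibitor replicate 2, ALK inhibitor replicate 3 or Tyr19Phe CDK9 replicate 2 (adjusted p up to 0.221). RTF1 was lost whichever of the 6 libraries was left out (adjusted p up to 0.236) and was kept in 6 of the 11 other alternatives.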

How the results depend on the processing

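Among the pausing and elongation genes, 3 were called higher in Tyr19Phe CDK9 against WT CDK9 cells and 2 against the ALK inhibitor, and no alternative moved either count by more than 1.5 times; with the ALK inhibitor the count of 0 became 1 only at an unadjusted p under 0.05. In the list of other elongation genes, the count called with the ALK inhibitor was 1, and became 2 with DESeq2, 0 at an adjusted p under 0.01, 4 at an unadjusted p under 0.05 and 0 to 1 with 1 library left out. In Tyr19Phe CDK9 against WT CDK9 cells the count was 6, and became 3 at an adjusted p under 0.01, 11 at an unadjusted p under 0.05 and 3 to 5 with 1 library left out. Against the ALK inhibitor it was 5, and became 3, 13 and 3 to 6.

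Directions turned only for genes whose differences were close to 0 and not called; the cause was not tested. For NELFB with the ALK inhibitor the log2 fold change was -5.21e-05 with no filter on low counts, -0.00037 with protein-coding genes only, -0.0039 with the length offset and -0.0157 to 0.0385 with 1 library left out; for SUPT5H it was -0.0087 to 0.0501 with 1 library left out, below 0 without ALK inhibitor replicate 1. For NELFA in Tyr19Phe CDK9 against WT CDK9 cells it was 0.019 with upper-quartile scaling, 0.024 with library size alone, 0.00081 with no filter, 0.0048 with at least 10 counts in every library, 0.0077 with protein-coding genes only, 0.0022 with the length offset and -0.0413 to 0.0413 with 1 library left out. Against the ALK inhibitor NELFA was -0.0092 and LEO1 0.0037 with the GC offset, and with 1 library left out NELFCD was -0.00604 to 0.0384 (below 0 without Tyr19Phe CDK9 replicate 2) and LEO1 -0.077 to 0.0299 (above 0 without ALK inhibitor replicate 2 or Tyr19Phe CDK9 replicate 1).

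Over all tested genes, same-numbered libraries did not deviate together from their group means (correlations from -0.012 to 0.026). Values over all genes cannot exclude a shared batch that affects only some of them. A fit with the replicate block called the same 3 genes in Tyr19Phe CDK9 against WT CDK9 cells (NELFB 0.26, SUPT6H 0.24, PAF1 0.19) and changed no call of the 9 genes. With 3 libraries per group an exact permutation test of 1 gene cannot give a p under 0.1.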
